A study of Saccharomyces cerevisiae with 4 samples.

Results

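The genes described here encode factors of ribosome assembly whose *Saccharomyces cerevisiae* symbols consist of UTP, NOP, RRP, NOC, NSA or ENP and a number. They were taken by symbol from the deposited table, with the condition that a value was present on at least 3 of the 4 arrays. Of 59 such symbols in the table, 51 met it: 14 UTP, 16 NOP, 15 RRP, 2 NOC, 2 NSA and 2 ENP genes, out of 6172 genes in all. A value was present on all 4 arrays for 38 of the 51, which are called tested members below, and on 3 arrays for the other 13.

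The arrays were 2-colour cDNA hybridisations of *mid2* mutant cells in the BY4741 background, a haploid laboratory strain of mating type a. Cells exposed to zymolyase at 0.8 units per ml for 3 h were set against untreated cells of the same culture, both grown in rich medium (YEPD) at 24 °C and both lacking Mid2, which senses wall stress at the cell surface. Zymolyase is an enzyme preparation that digests cell wall glucan. Total RNA of 2 cultures was hybridised in both dye orientations, so that Cy3 carried the treated RNA on arrays 1 and 3 and Cy5 carried it on arrays 2 and 4. Which arrays belong to the same culture is not in the labels. For untreated cells of array 4, 1 label gives *hog1* as the mutant and another gives *mid2*. *MID2* had no value on any array, so the genotype was not checked, and wild-type cells were not analysed here.

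Each value is taken as a log2 ratio of treated over untreated cells. No source used here gives the base of the logarithm or the numerator, so the direction is likely rather than known. It rests on 10 genes known to be induced by cell wall damage, of which 9 were above 0 on all 4 arrays. Array medians of the 3299 genes measured on every array were between −0.37 (array 2) and −0.02 (array 1). Blanks were most frequent on array 2, where 42.1% of all genes had no value, against 19.9% to 24.0% on the others, and 11 of the 13 members with 3 values lacked that array. Errors are the SD over 4 arrays of 2 cultures, so part of the spread is technical.

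Ribosome assembly starts in the nucleolus, where RNA polymerase I transcribes a long precursor of the ribosomal RNAs. The small subunit processome, built from the UTP subcomplexes and the U3 snoRNP, folds and cleaves the part that becomes the small (40S) subunit, while another set of factors assembles the large (60S) subunit. Small nucleolar ribonucleoproteins (snoRNPs) guide methylation of the RNA, and the exosome trims its 3′ ends. In budding yeast the genes of these factors are known to be transcribed together in step with growth and to be lowered in many acute stresses.

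After 3 h of zymolyase none of the 38 tested members rose or fell past the threshold in *mid2* cells (limma, adjusted p under 0.05 under both possible pairings of arrays into cultures), and 1, *RRP43*, had an unadjusted p under 0.05. Over all 3299 tested genes 4.15% were called, 2.76% higher and 1.39% lower in treated cells, and 10.8% had an unadjusted p under 0.05. The 38 mean log2 ratios lay between −0.59 and 0.23, 10 above 0 and 28 below (73.7%, against 72.2% of all tested genes), with a median of −0.11 against −0.14 for all tested genes. In 33 of the 38 the SD over arrays was larger than the size of the mean. When each array was centred on its own median, 21 means were above 0 and 17 below, against 53.1% of all genes below. The median turned to 0.02 on centring, and to −0.01 when arrays were also scaled to 1 spread. Centring raised the median of all means by 0.13.

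These counts do not show that the genes were unchanged. Every tested member had the same standard error of 0.28, since the fit borrows its spread across genes, and a 95% interval of the mean ± 0.54. For 36 of the 38 that interval lay within −1 and 1, so that a 2-fold change in either direction fell outside it. This rests on the shared spread and not on a gene's own arrays. *NOC4* (SD 0.10) and *NOP15* (SD 1.01) had intervals of the same width. The smallest means called among all genes were 0.85 for a rise and −0.85 for a fall. With genes on at least 3 arrays, where 1.06% of 4429 genes were called, none of the 51 members passed and 2 had an unadjusted p under 0.05 (*RRP43* and *UTP6*). On 4 arrays with a dye term none passed and 2 had an unadjusted p under 0.05. For the fit with a dye term the share of all genes called is not given here. Neither of these fits has the share of all genes at that unadjusted p beside it, so the counts of 2 are description only.

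**Figure D1:**
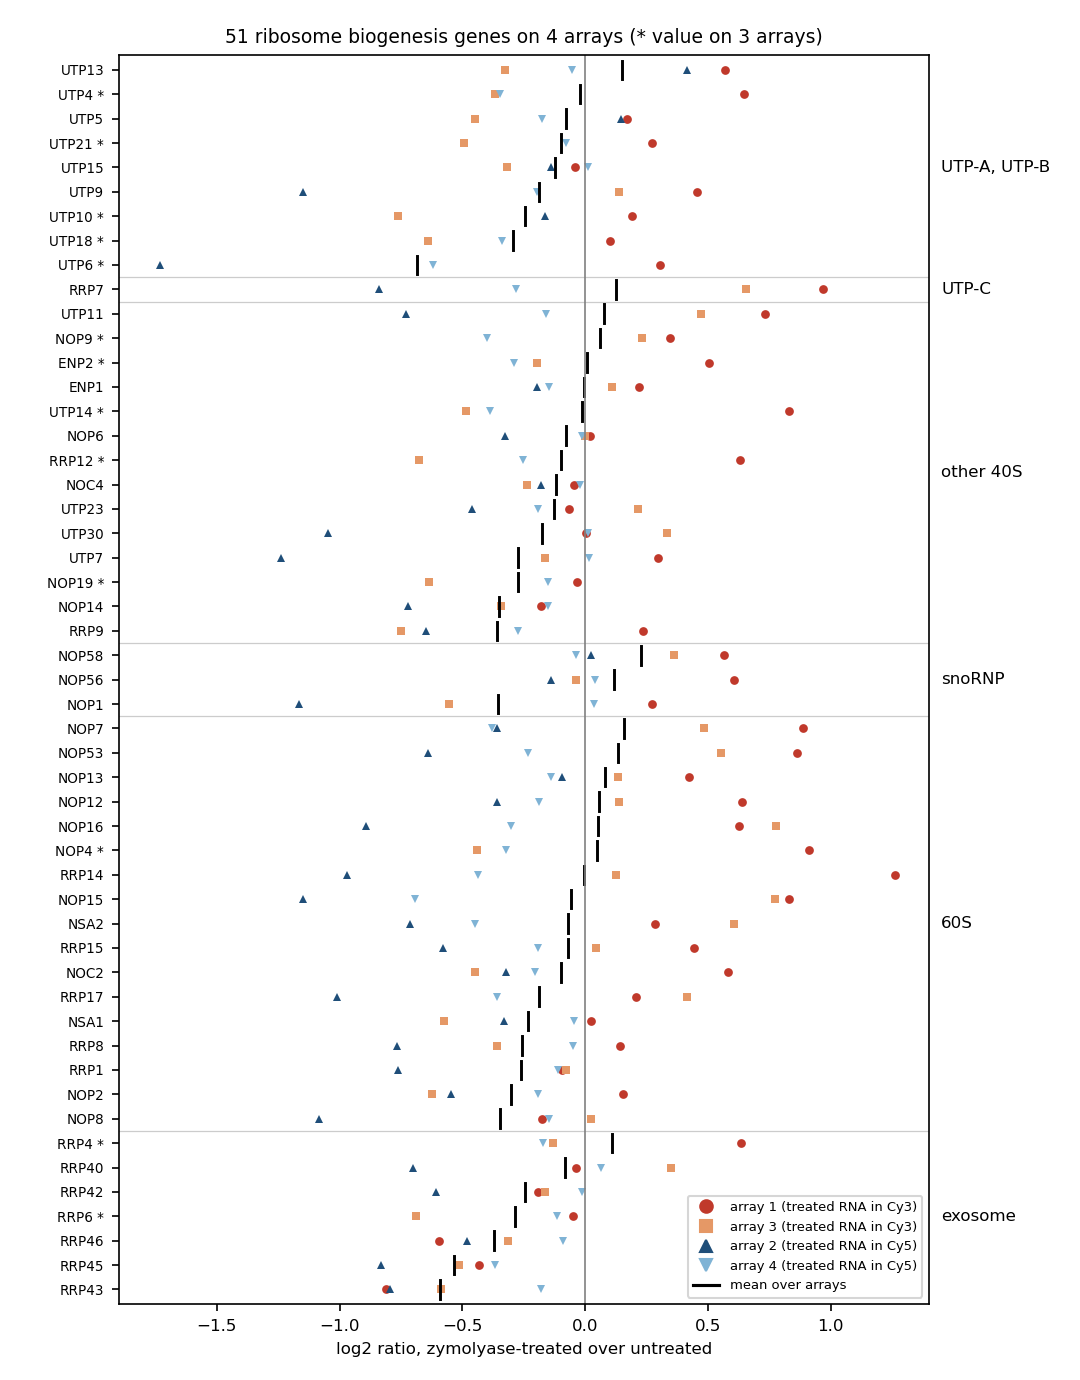
Log2 ratios (horizontal axis, zymolyase-treated over untreated) of the 51 members on each array, grouped by role, with circles and squares for arrays with treated RNA in Cy3, triangles for arrays with it in Cy5, and a black bar for the mean over the arrays measured. Most 60S members have both Cy3 arrays to the right of both Cy5 arrays, and the exosome members *RRP43*, *RRP45*, *RRP46* and *RRP42* have all 4 arrays left of 0.

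The order of the dye orientations was compared after the values were seen. In 18 of 38 (47.4%) both arrays with treated RNA in Cy3 read higher than both with it in Cy5, and in none was the order turned round. Among all tested genes the shares were 29.4% and 15.6%. The members' medians were 0.23 and 0.01 on arrays 1 and 3, and −0.64 and −0.15 on arrays 2 and 4. In 15 members both Cy3 arrays were above 0 and both Cy5 arrays below it, a pattern that 15.6% of all tested genes had. No member was above 0 on all 4 arrays, where 6.15% of all tested genes were. After centring 3 members were (*NOP6*, *NOP56* and *NOP58*), against 10.0% of all genes. The 13 members with 3 values are outside these counts. Of them, 11 were above 0 on array 1, but on array 3, also with treated RNA in Cy3, 11 of 12 were below 0. On array 4, 12 of 12 were below 0.

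Array 2 was lower than the others as a whole, and part of the pattern moved with that. With every array's own median subtracted, both Cy3 arrays were higher in 14 of 38 members (36.8%, against 22.2% of all genes) and both Cy5 arrays in 4 (against 25.7%). The pattern of signs was then seen in 10 members and in 12.3% of all genes. Without array 2 the 2 Cy3 arrays were above array 4 in 18 members, against 34.6% of all genes. The difference between the members and other genes was not tested, nor was the part of array 2 or of the dyes in it.

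The dye offset of a gene, its mean over the Cy5 arrays minus its mean over all 4, had a median of −0.20 in the tested members and −0.07 in all tested genes, or −0.11 and 0.02 after centring. With its sign turned, the offset is the mean a gene would have had if the ratios of arrays 2 and 4 ran the other way round. Its size exceeded that of the mean in 22 of 38 members, against 44.5% of all genes. A dye term fitted on 4 arrays passed for no member and for no gene (0% of 3299, lowest adjusted p = 0.207 among members, limma). In that fit 10 members had an unadjusted p under 0.05, all with Cy3 higher. Over all genes the share was 12.9%, counted in either direction. After centring it was 9 members, against 14.6% of all genes, again in either direction. Across the 38 members, Spearman's rho was 0.53 between arrays 1 and 3 and 0.24 between arrays 2 and 4, both of which share an orientation. Between arrays of opposite orientation it was −0.00 (arrays 1 and 2), −0.40 (1 and 4), −0.20 (2 and 3) and −0.32 (3 and 4), against 0.14, −0.08, −0.04 and 0.04 over all 3299 genes. Genes on one array share its hybridisation and are not independent.

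**Figure D2:**
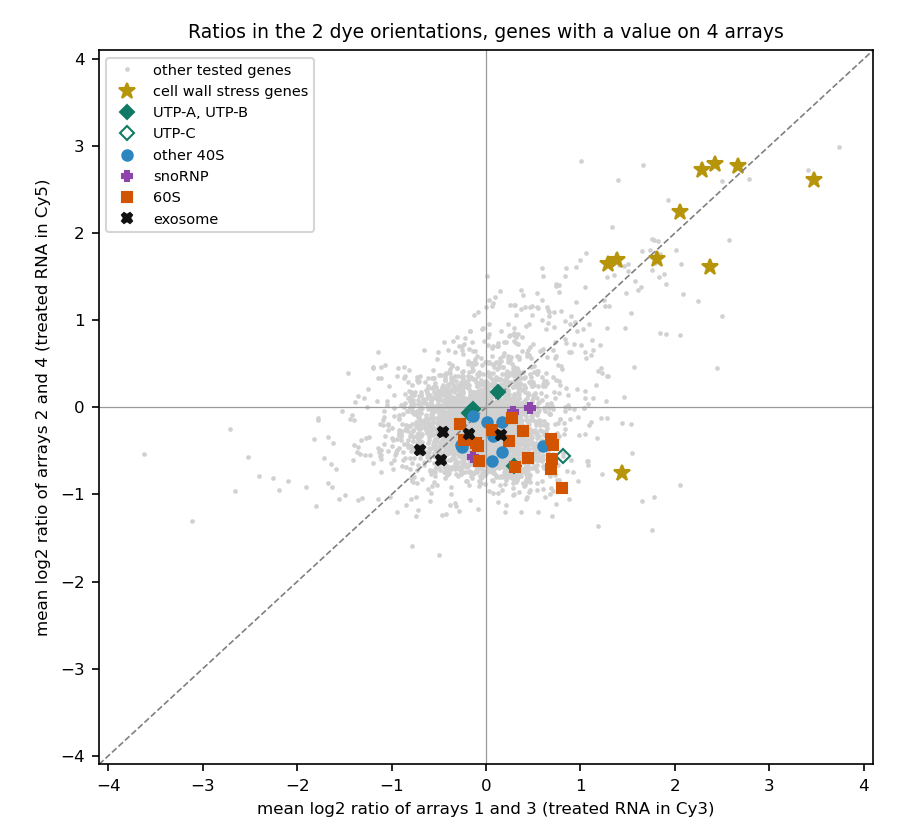
Mean log2 ratio of arrays 1 and 3 (horizontal axis, treated RNA in Cy3) against that of arrays 2 and 4 (vertical axis, treated RNA in Cy5) for the 3299 genes with a value on 4 arrays, with the 38 tested members coloured by role, 10 cell wall stress genes as stars and a dashed line of equality. The members lie close to 0 and mostly below the line, whereas 9 of the 10 stress genes are above 0 in both orientations.

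The UTP-A and UTP-B subcomplexes are the first to join the precursor RNA. UTP-A also links its transcription to its processing. Of their 9 members here 4 were tested, and their means lay between −0.19 and 0.15. *UTP13*, a UTP-B subunit, read 0.57, 0.41, −0.33 and −0.05 on arrays 1 to 4, with a mean of 0.15 ± 0.41. It was thus high on arrays 1 and 2 and low on arrays 3 and 4, with no common order of the dyes. *UTP5*, a UTP-A subunit, had the same split at smaller size, with 0.17 and 0.15 on arrays 1 and 2 and −0.45 and −0.18 on arrays 3 and 4.

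*UTP15*, another subunit of UTP-A, stayed between −0.32 and 0.01 on all arrays (mean −0.12 ± 0.15). *UTP9*, of the same subcomplex, read 0.45 and 0.14 on the Cy3 arrays and −1.15 and −0.19 on the Cy5 arrays, with the lowest mean of the 4 (−0.19 ± 0.69). Only *UTP9* among these 4 had both Cy3 arrays above both Cy5 arrays.

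The other 5 members of these subcomplexes had values on 3 arrays. *UTP6*, a UTP-B subunit without a value on array 3, read 0.30, −1.73 and −0.62 on arrays 1, 2 and 4. Its value on array 2 was the lowest of any member on any array, and its mean was −0.68 ± 1.02 (SD, n = 3 arrays). In the fit of genes on at least 3 arrays, the estimate averaged over the pairings was −0.81 and did not pass (limma, adjusted p = 0.363). *UTP10*, a large UTP-A subunit, read 0.19, −0.16 and −0.76 on arrays 1 to 3. *UTP4*, also of UTP-A, and the UTP-B genes *UTP18* and *UTP21* lacked array 2. All 3 were above 0 on array 1 (0.65, 0.10 and 0.27) and below 0 on arrays 3 and 4.

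UTP-C is a further subcomplex of the processome, of which *RRP7* alone had values on at least 3 arrays. *RRP7* read 0.97 and 0.66 on the Cy3 arrays and −0.84 and −0.28 on the Cy5 arrays. Its mean was 0.13 ± 0.84, with the sign of the ratio different in each dye orientation. *RRP36* had values on 2 arrays only (−0.38 and −0.17 on arrays 3 and 4) and *UTP22* on none.

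Of 14 other members that act in the processome or later on the 40S subunit, 9 were tested, with means from −0.36 to 0.08. *RRP9*, a protein specific to the U3 snoRNP, had the lowest mean (−0.36 ± 0.45), with 0.23 on array 1 and −0.65, −0.75 and −0.27 on arrays 2 to 4. *NOP14* was below 0 on every array, at −0.18, −0.72, −0.34 and −0.15 (mean −0.35 ± 0.26). Its binding partner gene *NOC4* was also below 0 on every array, but only by 0.24 at most (mean −0.12 ± 0.10), and its mean after centring was 0.01. These were 2 of the 7 tested members below 0 on all 4 arrays, against 17.0% of all tested genes (5 members and 8.67% of genes after centring).

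At the upper end, *UTP11* read 0.73 and 0.47 on the Cy3 arrays and −0.73 and −0.16 on the Cy5 arrays (mean 0.08 ± 0.66). *ENP1*, whose product stays on the precursor of the small subunit until late, showed the same order at smaller size, from −0.20 on array 2 to 0.22 on array 1 (mean −0.00 ± 0.20). *NOP6*, an RNA-binding protein gene, lay within 0.02 of 0 on arrays 1, 3 and 4 and at −0.33 on array 2. *UTP7*, *UTP30* and *UTP23* were also lowest on array 2, at −1.24, −1.05 and −0.46, with means of −0.27, −0.17 and −0.13. In this role group 4 of 9 members had both Cy3 arrays above both Cy5 arrays, and 2 of 9 after centring.

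The 5 members of the group with 3 values all lacked array 2. *UTP14*, whose product activates a helicase of the processome, was above 0 on array 1 (0.83) and below it on arrays 3 and 4 (−0.48 and −0.39). *RRP12*, a factor in the export of both subunits, read 0.63, −0.68 and −0.25 on the same arrays, and *ENP2* read 0.50, −0.19 and −0.29. *NOP9* differed in being above 0 on both Cy3 arrays (0.34 and 0.23), with −0.40 on array 4. *NOP19* was below 0 on all 3, at −0.03, −0.64 and −0.15.

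A small set of proteins forms the core of the box C/D snoRNPs, which guide ribose methylation. *NOP1*, which encodes the methyltransferase fibrillarin, had a mean of −0.35 ± 0.64, with −1.17 on array 2 and −0.56 on array 3 but 0.27 and 0.03 on arrays 1 and 4. *NOP56* and *NOP58* encode the paired scaffold proteins of the same particle. *NOP56* read 0.60, −0.14, −0.04 and 0.04 (mean 0.12 ± 0.33), and *NOP58* read 0.57, 0.02, 0.36 and −0.04, the highest mean of all tested members at 0.23 ± 0.28. The subunits of this particle thus had means on both sides of 0, with ranges that overlapped. The box H/ACA protein gene *NOP10*, which has a part in pseudouridylation, was not analysed here.

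The 60S assembly factors were the largest role group, with 17 members of which 16 were tested. Their medians were 0.43 and 0.13 on the Cy3 arrays and −0.68 and −0.20 on the Cy5 arrays. On array 1, 14 of the 16 were above 0 and on array 3, 11, while none was above 0 on array 2 or array 4. Of all 3299 tested genes, 1604, 863, 1516 and 1246 were above 0 on arrays 1 to 4. After centring, 14, 5, 11 and 2 of the 16 were above 0, against 1648 or 1649 of all tested genes on each array. Both Cy3 arrays were above both Cy5 arrays in 11 of 16 (68.8%) and, after centring, in 9 (56.2%). The remaining tested members showed that order in 7 of 22 (31.8%), near the share of all genes given above, and in 5 of 22 (22.7%) after centring. Of these, the 14 small subunit members showed it in 6 cases (42.9%) and in 4 (28.6%) after centring, and the exosome members in none. The difference between these role groups was not tested. Means of the 60S members were small, between −0.35 and 0.16, and in all 16 the SD was larger than the size of the mean.

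*NOP15*, an RNA-binding protein gene needed for early 60S particles, had the widest separation, with 0.83 and 0.77 on the Cy3 arrays and −1.15 and −0.69 on the Cy5 arrays. Its mean was −0.06 ± 1.01, and its dye offset was −0.86 (dye term in limma, unadjusted p = 0.000647, adjusted p = 0.207). *RRP14* read 1.26 and 0.13 against −0.97 and −0.44, which included the highest value of any member on any array, at a mean of −0.01 ± 0.96. *NOP16* (0.63 and 0.78 against −0.89 and −0.30) and *NOP53* (0.86 and 0.55 against −0.64 and −0.23) followed, with dye offsets of −0.65 and −0.57. The Nop53 protein recruits the exosome to the particle. None of these means approached the size at which any gene was called.

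*NOP7*, the yeast relative of pescadillo, had the highest mean of the 60S members, 0.16 ± 0.63, again with 0.89 and 0.48 on the Cy3 arrays and −0.36 and −0.38 on the Cy5 arrays. *NSA2* (0.29 and 0.61 against −0.71 and −0.45) and *RRP17* (0.21 and 0.41 against −1.01 and −0.36), which encodes an exonuclease of 5′ ends, had dye offsets of −0.51 and −0.50. These 7 genes were the 60S members with an unadjusted p under 0.05 for the dye term. *NOP12*, *NOP13* and *RRP15* showed the order at smaller size, with dye offsets of −0.33, −0.20 and −0.31, and *RRP1* by the smallest margin, since its values on arrays 1, 3 and 4 were −0.10, −0.08 and −0.11 and only array 2, at −0.76, stood apart.

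The other 60S members, among them those with the lowest means except *RRP1*, did not separate the dyes in this way. *NOP8* read −0.18, −1.08, 0.02 and −0.15 on arrays 1 to 4 (mean −0.35 ± 0.50), so that array 2 alone was far below 0. *NOP2* and *RRP8* encode base methyltransferases of the large ribosomal RNA. *NOP2* read 0.15, −0.55, −0.62 and −0.19 (mean −0.30 ± 0.36), and *RRP8* read 0.14, −0.77, −0.36 and −0.05 (mean −0.26 ± 0.40). Both were above 0 on array 1 alone, as were *NSA1* (0.02, −0.33, −0.58 and −0.04) and *NOC2* (0.58, −0.32, −0.45 and −0.20). *NOP4*, an RNA-binding protein gene without a value on array 2, had the same pattern at 0.91, −0.44 and −0.32.

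The exosome members were the lowest role group. The exosome is the nuclease complex that trims precursor ribosomal RNA from the 3′ end, and *RRP42*, *RRP43*, *RRP45* and *RRP46* encode subunits of its ring. All 4 were below 0 on all 4 arrays, and the fifth tested member, *RRP40*, which encodes a cap subunit, was not. The median of the 5 means was −0.37, or −0.24 after centring, when 3 of the 5 were still below 0 on all arrays. None passed the threshold in both pairings.

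*RRP43* read −0.81, −0.79, −0.59 and −0.18 on arrays 1 to 4. Its mean of −0.59 ± 0.29 was the lowest of all tested members and corresponds to 0.663-fold (95% interval −1.14 to −0.05, limma, unadjusted p = 0.0320, adjusted p = 0.348). It passed only when arrays 1 and 4 were taken as 1 culture and arrays 2 and 3 as the other (adjusted p = 0.0354). That pairing called 9.28% of all genes, and over all settings tried the adjusted p ranged up to 0.819.

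*RRP45* read −0.43, −0.83, −0.51 and −0.37, with the smallest SD of the exosome members at a mean of −0.54 ± 0.21 (limma, adjusted p = 0.472). *RRP46* read −0.60, −0.48, −0.31 and −0.09 (mean −0.37 ± 0.22), and *RRP42* read −0.19, −0.61, −0.17 and −0.01 (mean −0.24 ± 0.25). In none of the 5 exosome members did the arrays of the 2 orientations separate in either direction as deposited. After centring both Cy5 arrays were above both Cy3 arrays in 2 of the 5 (*RRP43* and *RRP46*), against 25.7% of all genes. *RRP40* read −0.04, −0.70, 0.35 and 0.06 (mean −0.08 ± 0.44).

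The other 2 exosome members lacked array 2. *RRP6*, the nuclear exonuclease subunit, was below 0 on its 3 arrays, at −0.05, −0.69 and −0.12. *RRP4*, a cap subunit like Rrp40, read 0.63, −0.13 and −0.17. Values below 0 on every array, as in the ring genes named above, were thus not seen in every subunit. *MTR3*, a ring gene outside the name rule, averaged 0.07 on the Cy3 arrays and −0.60 on the Cy5 arrays. It was thus not below 0 on every array. From a list of 11 exosome genes outside the name rule and cofactors, 6 were tested, with *DIS3*, *CSL4* and *MTR4* not among them. All 6 means were below 0, between −0.39 (*AIR2*) and −0.18 (*MPP6*), against 72.2% of all tested genes. After centring all 6 were still below 0, against 53.1% of all genes. None of these 6 genes was below 0 on all 4 arrays as deposited, against 17.0% of all genes.

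**Figure D3:**
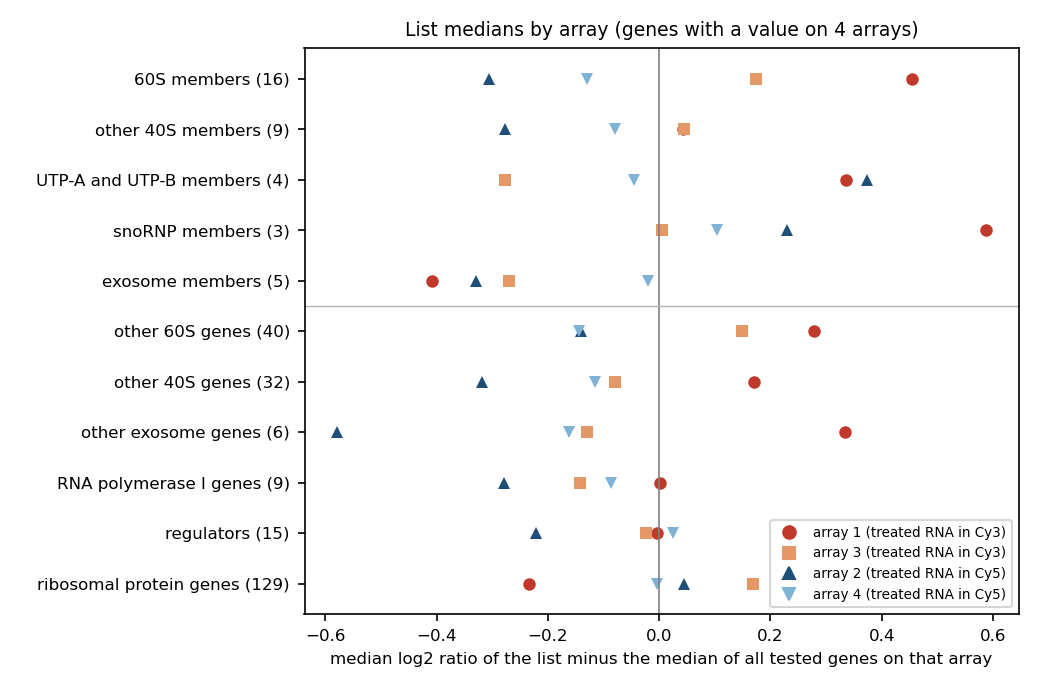
Median log2 ratio of each gene list minus the median of all tested genes on the same array (horizontal axis), 1 symbol per array, with the number of genes with a value on 4 arrays in brackets and a line between the members and other ribosome genes. The 60S members, the other 60S genes and the other 40S members have both Cy3 arrays above 0 and both Cy5 arrays below. For the other 40S members the Cy3 medians are only 0.04 and 0.05. The exosome members are below 0 on all arrays.

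Other genes of ribosome production from lists chosen by function had no calls either. Of 40 tested genes for 60S assembly and export, none rose or fell past the threshold and 2 had an unadjusted p under 0.05 (limma). Both Cy3 arrays were above both Cy5 arrays in 25 of these 40 (62.5%) and in 23 after centring (57.5%), against 68.8% and 56.2% of the 60S members. The highest mean was that of *FPR3* (0.81, −0.28, 1.62 and 0.04, mean 0.55 ± 0.85) and the lowest that of *RLP24* (0.05, −2.03, −0.21 and −0.30, mean −0.62 ± 0.95). A single array carried much of each mean, array 3 for *FPR3* and array 2 for *RLP24*.

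None of 32 tested genes for the processome and 40S assembly was called, and 1 had an unadjusted p under 0.05. Of their means, 29 were below 0 (25 after centring, when 53.1% of all genes were), with a median of −0.22 against −0.11 for the tested members. Both Cy3 arrays were above both Cy5 arrays in 15 of the 32 (46.9%), against 29.4% of all genes. After centring this held in 10 (31.2%), against 22.2%. *PWP2*, a UTP-B subunit not covered by the name rule, had the lowest mean, with −0.03, −1.16, −0.59 and −0.37 (mean −0.54 ± 0.47). *MRD1* had the highest, but its 1.26 and 2.82 on arrays 1 and 2 stood against −0.32 and −0.53 on arrays 3 and 4 (mean 0.81 ± 1.56, limma, adjusted p = 0.0710).

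RNA polymerase I and its initiation factors (9 tested genes) had means between −0.39 for *RRN3* and 0.22 for *RPA135*, and of 15 tested regulators of ribosome gene transcription *KOG1* had the lowest mean, at −0.49. None of either list was called or had an unadjusted p under 0.05. The 129 tested genes of cytosolic ribosomal proteins had no calls and no unadjusted p under 0.05. Their medians were −0.26 and 0.12 on the Cy3 arrays and −0.33 and −0.07 on the Cy5 arrays, and both Cy3 arrays were above both Cy5 arrays in 26.4%.

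Of the 8 symbols of the same form that were left out because fewer than 3 arrays had a value, *UTP20* and *UTP25* had the largest ratios. *UTP20* read 0.81 and 2.14 on arrays 1 and 2, and *UTP25* read −2.99 and −0.66 on arrays 3 and 4. Each was blank on the other 2 arrays, so these genes have no replicate of an orientation. *NOC3*, *RRP3* and *UTP8*, with values on arrays 3 and 4 only, were above 0 on array 3 (0.19, 0.55 and 0.17) and below 0 on array 4 (−0.26, −0.28 and −0.27), and *RRP5* had no value.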

How the data were processed

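Values of 4 arrays were read from the deposited table, 1 log2 ratio per open reading frame (ORF) and array. How the authors normalized these log2 values is not given in the sources used here. The base of the logarithm was assumed. Precision is limited by having 4 arrays, without spot brightness. Of 6209 rows, 2 control rows were left out. ORF names were matched to a RefSeq gene table (assembly R64, names only): 5654 rows by locus tag, 57 by a synonym of 1 gene, 496 by neither. Rows of 1 gene were averaged, which concerned no member.

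Pearson correlations between arrays were above 0 for every pair over 3299 genes, so the ratios were taken as already turned 1 way. Spearman's rho over the same genes lay between −0.08 and 0.14 for pairs of opposite orientation. Under each of 2 possible pairings, the 2 arrays of a culture were averaged and the culture means tested against 0 with lmFit and eBayes (limma 3.58.1, R 4.3.3), leaving 1 residual degree of freedom. Calls required that the Benjamini-Hochberg adjusted p over all genes was under 0.05 in both, and the larger p is printed. The code was tested on simulated data. Alternatives changed scaling, missing values, pairing, dye term, prior, threshold and single arrays.

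Members and lists were chosen with earlier results of these data known. The rule for named genes took the 5 highest and 5 lowest member means, the 2 highest and 2 lowest of each role group, the snoRNP genes, members on 3 arrays, members of 1 sign on all arrays, and the highest and lowest gene of each other list, of which 1 is not reported here. Further members were named after their values were seen.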

Additional observations from a re-analysis of the deposited data

Results flagged for a closer look

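Among the 38 members with 4 values, an array was singled out where its distance to the next value took up nearly the whole range of the gene (Dixon's test at the 95% level). This held for 2 members, and about 5% of genes, or 1.9 of 38, would be singled out by chance. *NOP6* read −0.33 on array 2, while its other values lay between −0.01 and 0.02. *RRP1* read −0.76 on array 2, while its other values lay between −0.11 and −0.08. Array 2 had the lowest median and the most blanks, and its part in these values was not tested.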

How the results depend on the processing

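With 4 arrays, no stated culture for any of them and no signal over background in the table, small changes could not be resolved. The count of members called was 0 in every setting except arrays 1 with 4 as the only pairing, where it was 1 (*RRP43*). The count of all genes called (137, of which 91 higher and 46 lower) was 2 (2 higher, 0 lower) with arrays centred and scaled to 1 spread, 47 (44 and 3) with values on at least 3 arrays, 306 (156 and 150) with arrays 1 with 4 as the only pairing and 65 (53 and 12) on 4 arrays without a dye term, and the cause was not tested. Centring alone gave 115 (87 and 28) and a robust prior 160 (86 and 74). Leaving out single arrays gave 5 to 101 calls, with 5 without array 4, 47 without array 1 and 73 without array 2. The members' median of −0.11 lay between −0.28 (without array 1) and 0.07 (without array 2), and relative to all genes between −0.10 and 0.11 (0.04 with all arrays), so neither has a settled direction. Of 228 member means recomputed under the 6 settings that can change a mean (centring, scaling, single arrays left out), 226 moved by less than the SD over arrays, the exception being *NOC4* under centring and scaling. The counts by dye order and by sign were added after the data were seen: both Cy3 arrays were higher in 18 to 28 members when single arrays were left out, with 28 without array 3 or array 4, where fewer arrays have to agree. Members below 0 on every array numbered 7 to 12, with 12 without array 1. The same counts took 43.6% (without array 3), 54.7% (without array 4) and 26.4% (below 0 without array 1) of all genes.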
